A study of Mus musculus with 24 samples.

Results

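The data described here are the 6 RNA libraries of TTP-KO basophils taken 1 h and 0 h after antigen was washed away, out of 24 libraries in the series, and they ask which RNAs still gained once antigen was gone and tristetraprolin (TTP) was absent. TTP is the RNA-binding protein encoded by Zfp36. The libraries were chosen by genotype and time from the deposited read table, and 6 WT libraries of the same 2 times were used to test whether a change differed between the genotypes. The 4 groups compared were TTP-KO at 1 h, TTP-KO at 0 h, WT at 1 h and WT at 0 h, with 3 libraries each. The TTP-KO and WT libraries at 2 h and 4 h entered the fit and describe what came later.

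All groups shared the same preparation. Bone marrow was grown with 0.3 ng/mL IL-3 for 7 days, IgE against the hapten TNP (1 µg/mL) and the uridine analogue s4U (150 µM) were given on day 6, and cells bearing CD49b were enriched on magnetic beads. TNP-coupled ovalbumin at 10 ng/mL, which cross-links that IgE, was present for 1.5 h with s4U. Then antigen and s4U were both removed, and RNA was taken 0, 1, 2 or 4 h later, so a culture at 0 h is at the end of the antigen pulse and not at rest. IL-3 culture of marrow yields mixed cells, and the enrichment is by a single surface marker. The labels do not name the allele behind TTP-KO. Nor do they tell whether the 3 libraries in each group stem from different mice or cultures, so a p-value here rests on the spread among 3 libraries that could be technical repeats. Total RNA was analysed. The labelled and unlabelled parts of each RNA were not separated here.

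Basophils are rare blood granulocytes that carry the high-affinity IgE receptor. When antigen cross-links it, they release stored mediators and transcribe cytokine genes, among which Il4 is the one they are best known for. Many such RNAs carry AU-rich elements in the 3′ UTR, where TTP binds and recruits the machinery that removes the poly(A) tail and degrades the RNA. TTP is itself induced by the stimulus and acts on its own RNA, and Zfp36l1 and Zfp36l2 encode its relatives.

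The 6 TTP-KO libraries held 15181668 to 20978095 reads, within a range of 8839260 to 25372890 over all 24. Levels are given as TMM-scaled CPM, the reads of a gene per 1e6 reads after scaling of the libraries to each other. The labels name no added RNA of known amount, so levels are shares of the reads, and fewer cells of a type cannot be told apart from less RNA per cell. Each library was made by 3′ end sequencing. A gene was called when its Benjamini-Hochberg adjusted p in edgeR's quasi-likelihood test was under 0.05 over all 12936 genes tested. Log2 changes are 1 h against 0 h, ± standard error, with n = 3 libraries a group. Of the 20 tested genes of basophil identity, the granule protease genes Mcpt8 and Prss34 averaged 14732 and 11608 CPM in TTP-KO cells at 1 h, against 15070 and 12048 CPM in TTP-KO cells at 0 h, and neither was called. Other members of the list were lower at 1 h, and its median log2 change was -0.30 in TTP-KO cells and -0.20 in WT. The mast cell receptor gene Kit averaged 7.00 CPM in TTP-KO cells at 1 h and 11.3 CPM in TTP-KO cells at 0 h. The 7 tested mast cell markers went the other way as a sum, with 500 to 539 CPM in TTP-KO libraries at 1 h and 359 to 405 CPM in those at 0 h. In WT they summed to 496 to 582 CPM at 1 h and 419 to 455 CPM at 0 h. Most of the TTP-KO sum was Slc18a2, with means of 383 CPM at 1 h and 242 CPM at 0 h. Zfp36 still gave reads in the TTP-KO libraries. The labels do not say which part of the gene was deleted, so 3′ reads do not check the genotype.

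In TTP-KO basophils 159 genes rose and 195 fell within the first hour, which is 1.23% and 1.51% of the genes tested. In WT basophils 136 rose (1.05%) and 166 fell (1.28%). Library sizes alone, without TMM, gave 188 higher and 156 lower in TTP-KO cells and 199 higher and 118 lower in WT, so which direction held more calls depended on the scaling. Of the 159 genes that rose in TTP-KO cells 78 were also called higher in WT, which is 49.1% of the TTP-KO list and 57.4% of the WT list. Of the 195 that fell, 101 were called lower in both, or 51.8% and 60.8%. In WT 152 of the 159 rises and 191 of the 195 falls had the same sign. By edgeR 0 genes were called in opposite directions in the 2 genotypes, 2 of the TTP-KO calls had the opposite sign in WT at an unadjusted p under 0.05, and DESeq2 called 13 in opposite directions. The median log2 change of the rises was 0.92 in TTP-KO cells and 0.65 in WT, and that of the falls was -0.93 in TTP-KO cells and -0.72 in WT, where the choice of genes called in TTP-KO cells favours the larger TTP-KO values. The 1 h and 0 h libraries did not overlap in 152 of the 159 rises and 193 of the 195 falls, against 18.1% of all genes tested. The change itself differed between the genotypes for 8 genes, 0.0618% of those tested, 5 with a more positive and 3 with a more negative change in TTP-KO cells (594 genes at an unadjusted p under 0.05).

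**Figure D1:**
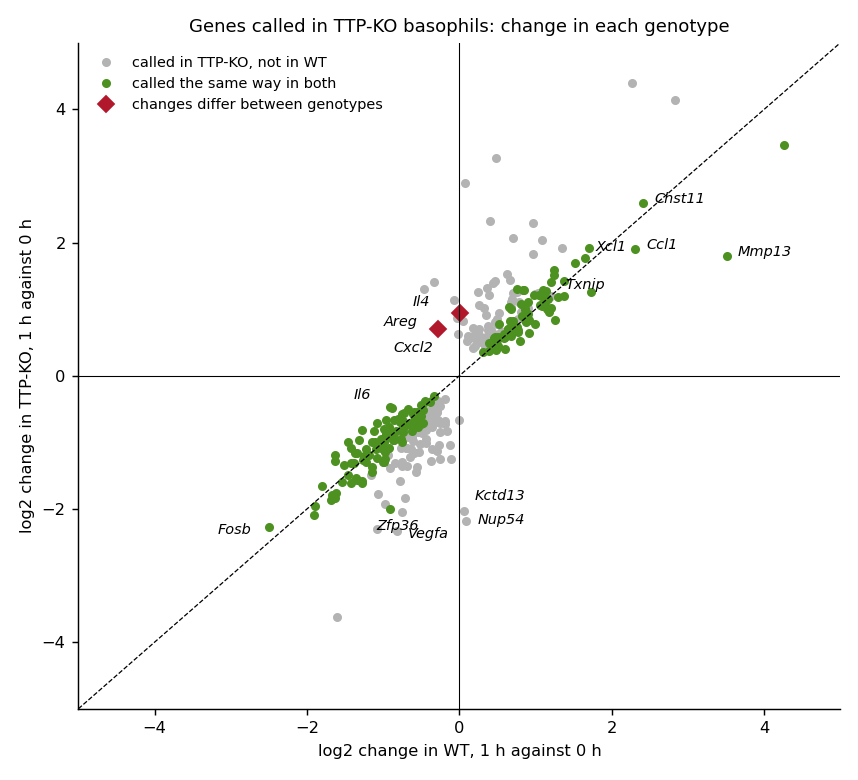
Log2 change from 0 h to 1 h in TTP-KO (y axis) and in WT basophils (x axis) for 343 of the 354 genes called in TTP-KO cells; 11 with a change beyond 5 in either genotype are not drawn. Green points were called the same way in both genotypes, grey points in TTP-KO alone, red diamonds are genes whose change differed between the genotypes, and the dashed line marks equal changes. Most points lie at the lower left or the upper right, where both changes have the same sign, while Il4, Areg and Cxcl2 have positive TTP-KO changes with WT changes near or below 0.

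Il4, Areg and Cxcl2 were the abundant RNAs that still gained in TTP-KO cells among 49 tested genes for secreted cytokines, chemokines and growth factors. Outside that list, Spp1, for the secreted protein osteopontin, averaged 2165 CPM in TTP-KO cells at 1 h and 1591 CPM at 0 h. Fgl2, also outside it, averaged 843 CPM in TTP-KO cells at 1 h and 480 CPM at 0 h. Both were called higher in WT as well. Il4 (ENSMUSG00000000869), the type 2 cytokine that drives IgE class switching, stood at 5809, 6109.5 and 6718 CPM in the TTP-KO libraries at 1 h, against 3556, 2655 and 3531 CPM in those at 0 h. The lowest library at 1 h was well above the highest at 0 h. The log2 change was 0.94 ± 0.11 (edgeR adjusted p = 7.72e-08), a 1.91-fold gain in the mean. WT libraries held 3923, 2767 and 2894 CPM at 1 h and 3045, 3388 and 3109 CPM at 0 h, and these 2 groups overlapped (log2 change 0.01 ± 0.11, edgeR adjusted p = 1). The difference between the genotypes' changes was 0.93 ± 0.16 (edgeR adjusted p = 0.00235).

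Areg (ENSMUSG00000029378) encodes amphiregulin, a ligand of the EGF receptor with a role in tissue repair. Its level was 1918, 1982 and 1795 CPM in TTP-KO libraries at 1 h, against 1092, 1210.0 and 1213 CPM in those at 0 h, and the groups did not overlap (0.70 ± 0.11, edgeR adjusted p = 2.83e-05). In WT it was 744, 608 and 754 CPM at 1 h, all below the 817, 905 and 842 CPM at 0 h, although that change did not pass (-0.28 ± 0.11, edgeR adjusted p = 0.229). The changes differed by 0.98 ± 0.16 (edgeR adjusted p = 0.000726). Cxcl2 (ENSMUSG00000058427), which encodes a chemokine that attracts neutrophils, had 5063, 4827 and 4687 CPM in TTP-KO libraries at 1 h, against 3234, 3108 and 3086 CPM in those at 0 h (0.63 ± 0.10, edgeR adjusted p = 3.73e-05). In WT it averaged 1613 CPM at 1 h and 1630.2 CPM at 0 h, with overlapping libraries (-0.02 ± 0.10, edgeR adjusted p = 1). The difference between the changes was 0.64 ± 0.14 and missed the threshold (edgeR adjusted p = 0.0609).

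Ccl3 and Plaur fell in WT and were called in neither direction in TTP-KO cells, and their changes differed between the genotypes. Ccl3 (ENSMUSG00000000982) encodes a chemokine for monocytes and lymphocytes that activated basophils make in quantity. It stood at 43099, 41361 and 36151 CPM in TTP-KO libraries at 1 h, against 39140, 36854 and 39185 CPM in those at 0 h. These groups overlapped (0.07 ± 0.09, edgeR adjusted p = 0.899). In WT the libraries lay at 12240, 13883 and 12837 CPM at 1 h, all below the 20637, 18278 and 20838 CPM at 0 h (-0.62 ± 0.09, edgeR adjusted p = 2.16e-06). The changes differed by 0.68 ± 0.12 (edgeR adjusted p = 0.00378).

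Plaur (ENSMUSG00000046223) encodes the urokinase receptor, which focuses plasminogen activation at the cell surface. TTP-KO libraries held 291, 288 and 255 CPM at 1 h and a spread of 326, 185 and 272 CPM at 0 h (0.09 ± 0.15, edgeR adjusted p = 0.95). WT libraries held 122, 118 and 118 CPM at 1 h, against 239, 227 and 250.2 CPM at 0 h (-1.0 ± 0.15, edgeR adjusted p = 1.45e-05). The changes differed by 1.09 ± 0.22 (edgeR adjusted p = 0.0186). This rests on library B at 0 h, the lowest of the 3 TTP-KO libraries there: without it the difference was 0.90 (edgeR adjusted p = 0.134).

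**Figure D2:**
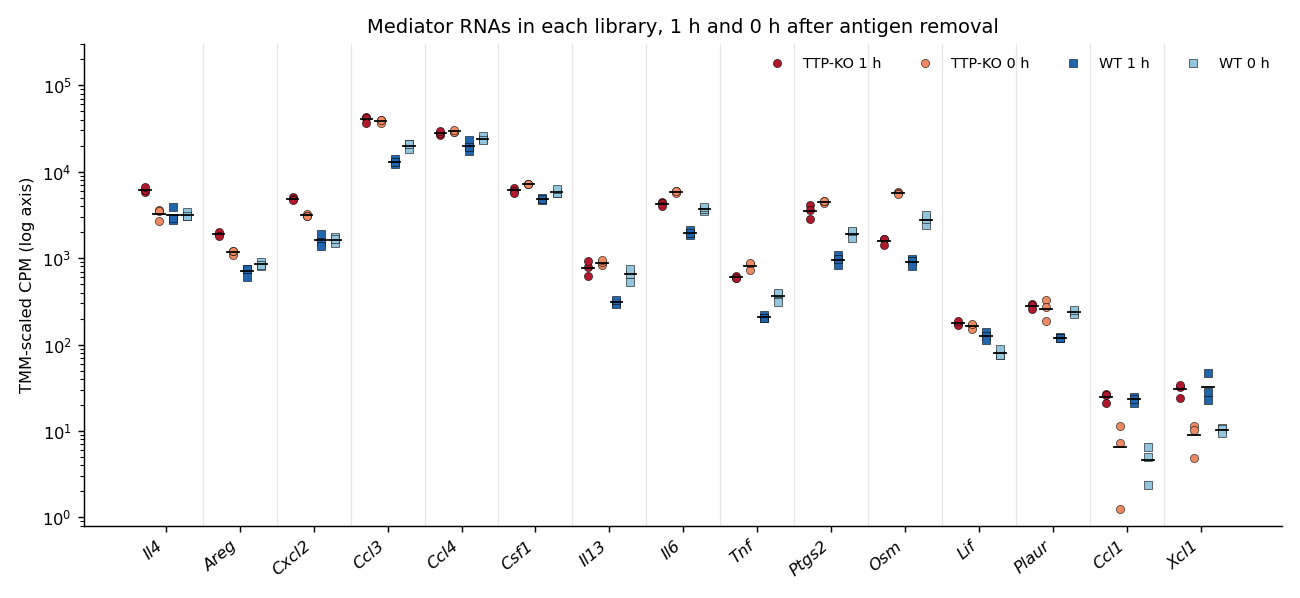
TMM-scaled CPM on a log axis of 15 RNAs, mostly of secreted mediators, in each library of TTP-KO at 1 h, TTP-KO at 0 h, WT at 1 h and WT at 0 h. Each point is a library and each bar the mean of 3. Il4, Areg and Cxcl2 are higher at 1 h than at 0 h in TTP-KO cells, Ccl1 and Xcl1 in both genotypes, and Osm and Il6 are lower at 1 h in both.

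The letters that TTP is known to bind are shown for 6 mediators, Areg, Cxcl2 and Ccl3 above and Il13, Il6 and Osm below, because RNAs that share the shorter motif, a heptamer, moved in different directions. They are stretches of 30 bases of the annotated 3′ UTR, an exonic part of the RNA after the stop codon, found by gene ID in GENCODE M21 on GRCm38. The submitters' notes name GRCm39, and these positions are on GRCm38. Capitals mark the heptamer TATTTAT or, where present, the nonamer TTATTTATT that contains it, searched on the RNA's own strand and written with T for U. The site shown lies at chr5:91148382-91148411 (plus strand) for Areg, chr5:90905316-90905345 (plus) for Cxcl2, chr11:83648002-83648031 (minus) for Ccl3, chr11:53631740-53631769 (minus) for Il13, chr5:30019728-30019757 (plus) for Il6 and chr11:4240585-4240614 (plus) for Osm.
Areg: tatttaagtgTTATTTATTttatagctcat
Cxcl2: gagagttcacTTATTTATTtatctatgtat
Ccl3: gtatttgtgacTATTTATtctgaaagactt
Il13: cttcttgatcTTATTTATTatggttgtgtg
Il6: tttatgattgaTATTTATtatttttatgaa
Osm: gcaagacacttTATTTATccgaatgtcagc
The Areg 3′ UTR holds 1 nonamer, found in 2.06% of 775 UTRs of similar length (within 20%), and the Cxcl2 UTR holds 4, with at least 1 found in 8.03% of 1917. Il13, which was not called in TTP-KO cells, holds 1 nonamer as well. Tnf, Ptgs2 and Lif, not called there either, hold 5, 1 and 2 nonamers. For the UTR lengths of Il13, Tnf, Ptgs2 and Lif, at least 1 nonamer was found in 4.44%, 4.55%, 12.4% and 14.5%. Zfp36, which fell, holds 1 nonamer, found in 4.63% of UTRs of similar length. The UTRs of Ccl3, Il6 and Osm hold the heptamer without the nonamer. So does that of Il4, not shown, with 2 heptamers in 104 bases. At least 1 heptamer was found in 3.28% of 274 UTRs of a length similar to that of Il4. For the UTR lengths of Ccl3, Il6 and Osm this share was 9.99%, 36.0% and 24.3%. Plaur held neither motif in its annotated 3′ UTR of 496 bases. Such a match is a description of letters, and RNAs that fell hold them too.

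Of the 49 tested genes for secreted cytokines, chemokines and growth factors, 6 rose and 3 fell in TTP-KO cells, against 1.23% and 1.51% of all genes tested. In WT 4 rose and 5 fell. The list's median log2 change was 0.11 in TTP-KO cells, or 0.07 with genes that had no reads in a group set at their bound, and -0.04 in WT. The median of all genes was 0.00 in both. Summed over the list, TTP-KO libraries held 124130 ± 1543 CPM at 1 h and 125910 ± 1696 CPM at 0 h, while WT libraries held 78227 ± 5277 CPM at 1 h and 96607 ± 2167 CPM at 0 h (SD, n = 3 each). Markers of macrophages, which also make several of these factors, summed to 4965 to 5156 CPM in TTP-KO libraries at 1 h, 4671 to 4726 CPM in TTP-KO libraries at 0 h, 3056 to 3135 CPM in WT at 1 h and 2622 to 2731 CPM in WT at 0 h. Of the 24 macrophage markers tested, 1 rose in TTP-KO cells (2 by DESeq2), and their part in the cytokine values was not tested.

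The other 3 genes of this secreted list that rose were chemokine genes at low levels. Ccl1 (ENSMUSG00000020702), which encodes a ligand of CCR8, had 26.7, 26.1 and 21.4 CPM in TTP-KO libraries at 1 h, against 11.4, 7.18 and 1.26 CPM in those at 0 h (1.90 ± 0.44, edgeR adjusted p = 0.00552). Xcl1, whose product attracts XCR1-bearing dendritic cells, averaged 30.4 CPM in TTP-KO cells at 1 h and 8.90 CPM in TTP-KO cells at 0 h (1.77 ± 0.33, edgeR adjusted p = 0.000313). Both rose in WT as well, by 2.31 and 1.64, and the test of the difference did not pass for either (edgeR adjusted p = 1). Without TTP-KO library C at 0 h, the Ccl1 change was 1.42 and not called (edgeR adjusted p = 0.0629). Nor was it called in the fit of only the 2 TTP-KO groups (1.93, edgeR adjusted p = 0.0593). Ccl24 (ENSMUSG00000004814), which encodes the eosinophil attractant eotaxin-2, had 4.82, 3.71 and 2.80 CPM in TTP-KO libraries at 1 h and 0 reads in all 3 at 0 h. It was thus at least 65.5-fold higher at 1 h, against a floor of 3 counts over the 0 h group. This rise was not called in the fit of only the 2 TTP-KO groups (edgeR adjusted p = 0.062). In WT Ccl24 had 19 reads at 1 h and 18 at 0 h, each from 1 library of 3. Its mean went on to 20.2 CPM at 2 h and 83.8 CPM at 4 h in TTP-KO cells, and to 8.52 and 27.7 CPM in WT.

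Osm, Il6 and Vegfa were the genes of the secreted list that fell. Osm (ENSMUSG00000058755), which encodes oncostatin M of the IL-6 family, had 1683, 1676 and 1413 CPM in TTP-KO libraries at 1 h, against 5787, 5633 and 5577 CPM in those at 0 h (-1.83 ± 0.11, edgeR adjusted p = 2.03e-16). In WT it fell by nearly as much, to 901 CPM at 1 h against 2793 CPM at 0 h (-1.63 ± 0.11). The difference between the changes was -0.20 ± 0.16. Il6 fell to 4400.4, 4348 and 3981 CPM in TTP-KO libraries at 1 h, against 5999.7, 5628 and 5939 CPM in those at 0 h (-0.46 ± 0.09, edgeR adjusted p = 0.000275). Its WT change was -0.91 ± 0.09, and the difference of 0.45 ± 0.12 did not pass (edgeR adjusted p = 0.438). Vegfa, a factor for vessel growth, averaged 7.67 CPM in TTP-KO cells at 1 h and 38.7 CPM in TTP-KO cells at 0 h (-2.33 ± 0.51, edgeR adjusted p = 0.00289).

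Several known mediators were called in neither direction in TTP-KO cells. Il13, the other type 2 cytokine of basophils, had 617, 782 and 918 CPM in TTP-KO libraries at 1 h, against 829, 896 and 942 CPM in those at 0 h (-0.20 ± 0.19, edgeR adjusted p = 0.787). In WT it fell by 1.07 on the log2 scale, and the difference of 0.87 ± 0.27 did not pass (edgeR adjusted p = 0.97). Tnf had 582, 619 and 590.1 CPM in TTP-KO libraries at 1 h, against 849.5, 736 and 875 CPM in those at 0 h. The groups did not overlap, but its change of -0.46 ± 0.15 missed the threshold (edgeR adjusted p = 0.082), although it passed with DESeq2, with the 2 groups fitted alone and with no filter. Ptgs2, the inducible cyclooxygenase gene, changed by -0.36 ± 0.13 (edgeR adjusted p = 0.177), with 4076, 3643 and 2841 CPM in TTP-KO libraries at 1 h and 4364, 4561 and 4625 CPM in those at 0 h. It passed with the 2 groups fitted alone and with no filter. In WT Tnf (-0.80) and Ptgs2 (-0.99) fell, and neither difference between the genotypes passed. Ccl4 (-0.05 ± 0.10), Csf1 (-0.24 ± 0.09) and Lif (0.11 ± 0.19) did not pass in TTP-KO cells, although Csf1 did with the 2 groups fitted alone. In WT Lif rose by 0.66 ± 0.19 (edgeR adjusted p = 0.0444).

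**Figure D3:**
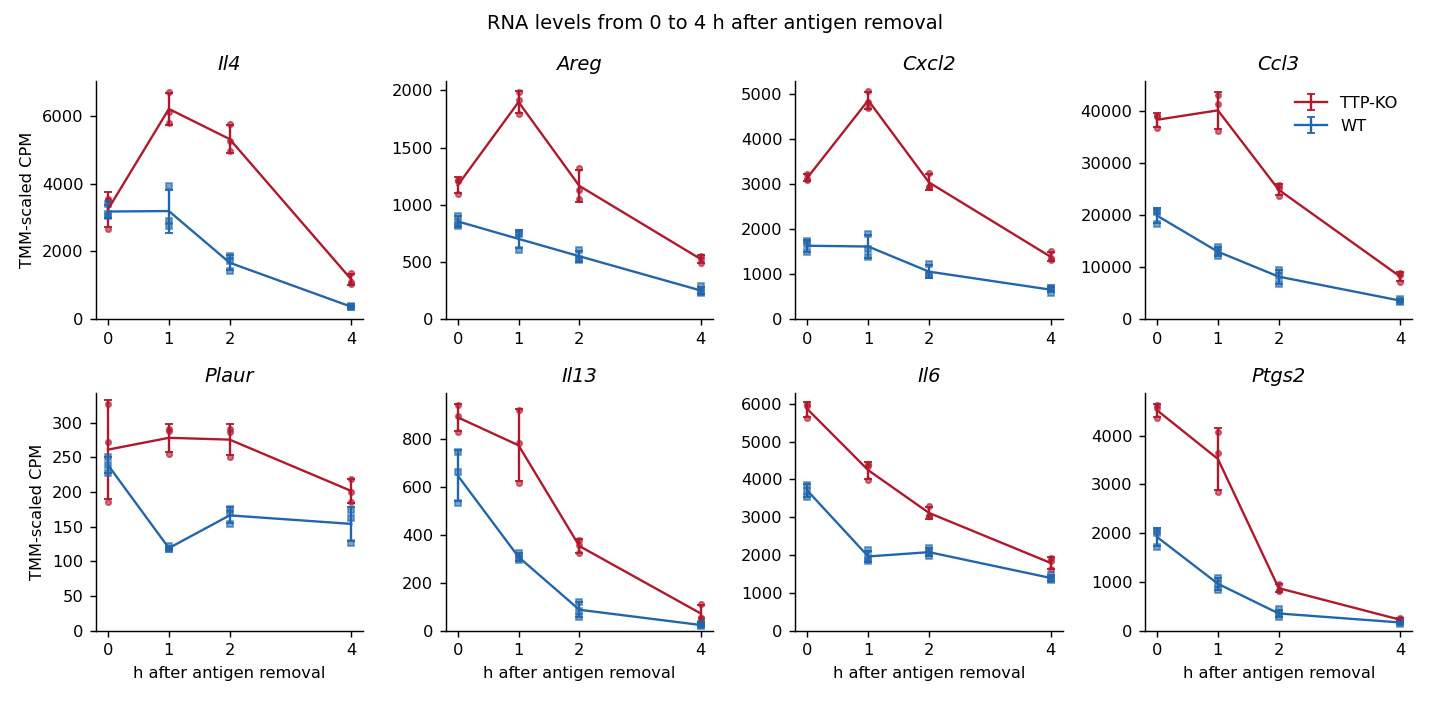
TMM-scaled CPM of 8 RNAs from 0 to 4 h after antigen removal in TTP-KO (red circles) and WT basophils (blue squares); points are libraries, lines join means and bars are SD of 3 libraries. Il4, Areg and Cxcl2 are highest at 1 h in TTP-KO cells, where Ccl3 and Plaur are near their 0 h level at 1 h. All 8 are lower at 4 h than at 0 h in both genotypes.

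Il4, Areg and Cxcl2 had their highest mean of the course at 1 h. In TTP-KO cells the mean level of Il4 was 3247, 6212, 5321 and 1174 CPM at 0, 1, 2 and 4 h. In WT it was 3181, 3195, 1668 and 367 CPM. Areg had 1172, 1898, 1166 and 524 CPM in TTP-KO cells at these times, and Cxcl2 had 3142, 4859, 3036 and 1385 CPM. Each of these 4 h means was below the mean at 0 h. Of the 159 genes that rose in TTP-KO cells, the highest mean of the course was at 1 h for 73, at 2 h for 44 and at 4 h for 42. At 4 h 116 still had a mean above that at 0 h. Of the 195 that fell, 106 had their lowest mean at 4 h and 177 were still below 0 h then.

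Among called genes with a mean of at least 10 CPM whose libraries did not overlap between 1 h and 0 h, the 15 largest gains include Ccl1 and Xcl1, and 9 of them were called in WT as well. Chst11 (ENSMUSG00000034612), which encodes a chondroitin sulfotransferase, had 186, 186 and 188 CPM in TTP-KO libraries at 1 h, against 25.7, 31.7 and 35.8 CPM in those at 0 h (2.59 ± 0.18, edgeR adjusted p = 5.47e-15). In WT it gained 2.42 ± 0.18. Txnip, which encodes an inhibitor of thioredoxin and of glucose uptake, had 799, 724 and 826 CPM in TTP-KO libraries at 1 h, against 281, 277 and 263 CPM in those at 0 h (1.51 ± 0.15, edgeR adjusted p = 2.73e-10). Its WT gain was 1.24 ± 0.15. The butyrophilin-like gene Btnl9 (1.92), the nucleoredoxin gene Nxn (1.69), Fndc3a (1.43) and the collagenase gene Mmp13 (1.80) rose in TTP-KO cells and in WT. Gramd1b, for a sterol transporter, rose by 1.44 ± 0.23 in TTP-KO cells, and its WT change of 0.67 did not pass. The same held for Pex16 (2.32), Zfp52 (2.04), Phospho2 (1.83), Acsbg1 (1.53) and Bcl2a1a (1.92). For none of these 12 genes did the difference between the genotypes pass. Acsbg1, Bcl2a1a, Mmp13, Pex16 and Phospho2 each lost their call in TTP-KO cells when 1 of some 2 to 6 libraries was left out (edgeR adjusted p between 0.0554 and 0.275). Bcl2a1a, a survival gene, has near-identical copies that can split its reads.

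The immediate early genes, whose transcription starts with the stimulus and stops soon after it, were mostly lower. Of 38 tested transcription factor genes of this kind, 13 fell and 2 rose in TTP-KO cells, with a list median of -0.62, and in WT 14 fell and 3 rose, with a median of -0.61. Among all genes tested 1.51% fell and 1.23% rose in TTP-KO cells, and 1.28% fell and 1.05% rose in WT. The orphan receptor gene Nr4a1 had 613, 566 and 653 CPM in TTP-KO libraries at 1 h, against 2491, 2185 and 2462 CPM in those at 0 h (-1.96 ± 0.14, edgeR adjusted p = 4.67e-15). In WT it fell by 1.90 on the log2 scale. Egr1 fell by 1.86, Junb by 1.65, Fosl2 by 1.62, Egr3 by 1.37 and the antiproliferative gene Btg2 by 1.76 in TTP-KO cells. Fosb fell by 2.27, a call that was lost without library B (-2.30, edgeR adjusted p = 0.0505) or library C (-2.19, edgeR adjusted p = 0.0705) at 1 h and by DESeq2 (-2.25, adjusted p = 0.321). The genes that rose encode Id1 (1.00 ± 0.18) and Id2 (0.52 ± 0.10), which block basic helix-loop-helix factors.

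Some feedback genes of the signalling pathways were called lower, against 1.51% of all genes tested. Of 16 genes of MAPK phosphatases and Ras-MAPK feedback, Dusp1 (-1.49), Dusp5 (-0.72) and Spry2 (-0.66) fell. Dusp1 encodes the phosphatase that inactivates p38 and JNK, and had 160.1, 160.0 and 131 CPM in TTP-KO libraries at 1 h, against 425, 455 and 389 CPM in those at 0 h. Of 25 NF-kB genes the nuclear inhibitors Nfkbid (-1.21) and Nfkbiz (-0.99) fell. Of 21 genes of the calcineurin and NFAT response, whose median change was 0.17, Egr2, Egr3 and Nr4a1, which are also in the immediate early list, and the G protein regulators Rgs1 (-1.27) and Rgs2 (-0.94) fell, while the costimulatory receptor gene Tnfrsf9 rose (1.40 ± 0.39, edgeR adjusted p = 0.0331). The Tnfrsf9 libraries overlapped, and DESeq2 and the fit of only the 2 groups did not call it, nor did fits without TTP-KO library A or B at 0 h or C at 1 h (edgeR adjusted p between 0.117 and 0.595). Single libraries also decided the calls of Egr2, Nfkbiz and Socs1, which reached an adjusted p of 0.203, 0.157 and 0.249 without 1 of them. Of 20 genes of cytokine signalling feedback, Socs3 (-1.09) and Socs1 (-0.59) fell. Ptpn6 rose by 1.03 ± 0.16, with 293 CPM in TTP-KO cells at 1 h and 144 CPM in TTP-KO cells at 0 h; it encodes the phosphatase SHP-1, which dampens receptor signalling.

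The rest of the 15 largest falls, taken from called genes by the same limits, were in genes of varied function. The transcription factor gene Klf16 had 19.5, 22.2 and 18.4 CPM in TTP-KO libraries at 1 h, against 68.6, 95.8 and 91.9 CPM in those at 0 h (-2.09 ± 0.36, edgeR adjusted p = 0.000108), and the uridine-cytidine kinase gene Uck2 averaged 80.4 CPM at 1 h and 279 CPM at 0 h (-1.79 ± 0.19, edgeR adjusted p = 1.41e-09). Both fell in WT too (-1.90 and -1.68). Calcoco1 (-3.62), Rassf3 (-2.30), Def8 (-2.05), Lypd6b (-1.93) and Ankrd27 (-1.83) fell in TTP-KO cells and had negative WT changes that did not pass. The nuclear pore gene Nup54 (-2.17) and Kctd13 (-2.03) fell in TTP-KO cells and changed by 0.09 and 0.06 in WT, without a call. Nup54 had 4.49, 3.39 and 4.73 CPM in TTP-KO libraries at 1 h, against 25.2, 13.5 and 18.4 CPM in those at 0 h. The difference between the genotypes passed for none of these 9 genes. Leaving out 1 of some 1 to 3 libraries ended the calls of Calcoco1, Nup54 and Kctd13 (edgeR adjusted p between 0.0667 and 0.0812).

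Zfp36 (ENSMUSG00000044786) was among the largest falls. Its reads were 36.0, 44.4 and 58.5 CPM in TTP-KO libraries at 1 h, against 158, 210.1 and 186 CPM in those at 0 h (-2.0 ± 0.24, edgeR adjusted p = 8.67e-08). In WT they were 147, 128 and 104 CPM at 1 h and 223, 269 and 219 CPM at 0 h (-0.90 ± 0.24, edgeR adjusted p = 0.0232). The difference of -1.09 ± 0.33 did not pass (edgeR adjusted p = 0.852). The relatives Zfp36l1 (-0.17 ± 0.19) and Zfp36l2 (0.13 ± 0.13) did not pass in TTP-KO cells. Of 54 RNA decay regulators 1 rose and 2 fell, the antiproliferative gene Tob2 (0.83) and Zfp36 with Btg2. Such counts are near the 1.23% higher and 1.51% lower among all genes tested. The Tob2 call was lost without TTP-KO library A at 0 h (edgeR adjusted p = 0.0931).

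Of 51 tested genes named as TTP targets in earlier work, 3 rose and 11 fell in TTP-KO cells, with a median of -0.32. Among all genes tested 1.23% rose and 1.51% fell there. In WT 2 of the 51 rose and 18 fell, with a median of -0.48, against 1.05% and 1.28% of all genes. The 3 that rose were Il4, Areg and Cxcl2. Those that fell included Osm, Dusp1, Nfkbid, Plk3 (-0.86), Phlda1 (-0.71), Cd69 (-0.84) and Ets2 (-0.49). The list shares members with the cytokine and immediate early lists. The heptamer stood in the annotated 3′ UTR of 35.8% of the 159 genes that rose, 41.8% of the 194 with a UTR that fell, and 30.7% of all 12740 with a UTR. For the nonamer these shares were 9.43%, 16% and 8.38%. Longer UTRs hold the motif more often, and the median UTR had 1354 bases among rises, 1562.5 among falls and 1183.5 among all. Among UTRs of 500 to 1500 bases the heptamer shares were 22.6% of 53 rises, 31.3% of 67 falls and 24% of all 4307, and the nonamer shares 5.66%, 16.4% and 5.67%.

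**Figure D4:**
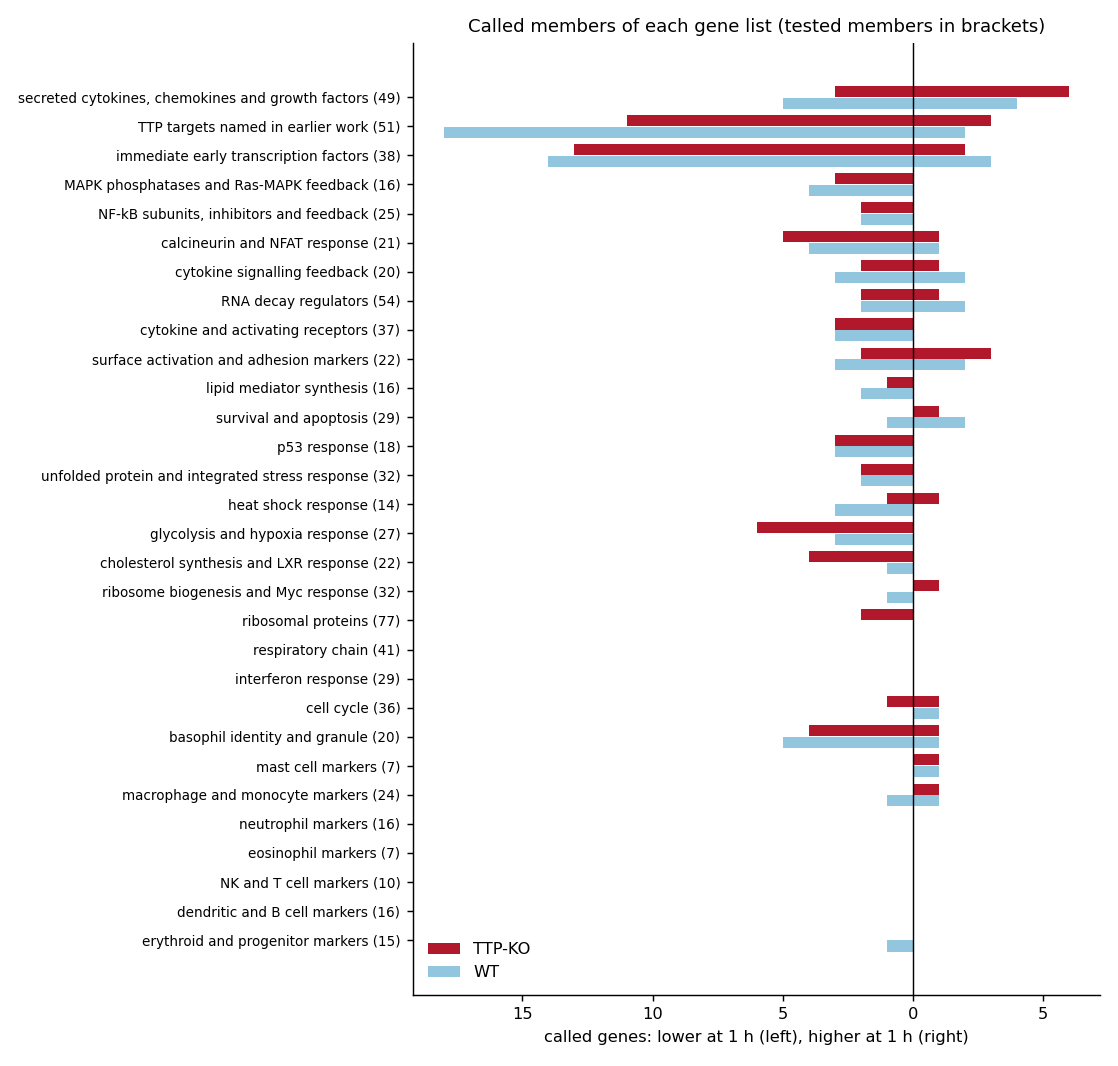
Number of genes of each list called lower (left of 0) or higher (right of 0) at 1 h than at 0 h, in TTP-KO (red, upper bar) and WT basophils (light blue, lower bar), with the number tested in brackets. The immediate early list has 13 lower and 2 higher in TTP-KO cells, the secreted factors 3 lower and 6 higher, and the respiratory chain and interferon lists none.

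The counts of falls in the next lists stand against 1.51% of all genes tested in TTP-KO cells and 1.28% in WT. Of 27 genes of glycolysis and the hypoxia response 6 fell in TTP-KO cells and 3 in WT, and the other 21 were not called in TTP-KO cells. Those of TTP-KO cells were the glucose transporter genes Slc2a1 (-0.99) and Slc2a3 (-0.58), the glycolytic enzyme genes Hk2 (-0.67) and Gpi1 (-0.64), Ddit4 (-0.68) and Vegfa. Of 22 genes of cholesterol synthesis and the LXR response 4 fell, among them the sterol sensor gene Insig1 (-1.57) and the demethylase gene Cyp51 (-0.94), and in WT 1 fell; the other 18 were not called in TTP-KO cells. Hk2, Gpi1, Slc2a3, Ddit4 and Insig1 each lost their call when 1 of some 1 to 5 libraries was left out (edgeR adjusted p between 0.0506 and 0.259), and the difference between the genotypes was not called for any of these 8 genes. Of 18 genes of the p53 response, the cell cycle inhibitor gene Cdkn1a (-0.83), Mdm2 (-0.97) and Btg2 fell. Of 32 stress response genes, the chaperone gene Dnajb9 (-1.16) and Ddit4 fell.

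In either direction 8.11% of 37 receptor genes, 22.7% of 22 surface genes and 25% of 20 basophil genes were called, against 1.23% higher and 1.51% lower among all genes tested. The receptor genes Ms4a2 (-1.11), for the beta subunit of the receptor for IgE, Il18r1 (-0.96) and Cxcr4 (-0.67) fell among 37 receptor genes, and the alpha chain gene Fcer1a was not called (-0.45 ± 0.18, edgeR adjusted p = 0.233). Ms4a2 had 153, 105 and 166 CPM in TTP-KO libraries at 1 h, against 275, 330.4 and 311 CPM in those at 0 h. Among 22 surface genes, the adhesion receptor gene Cd44 (0.56), Cd53 (0.36) and Tnfrsf9 rose, and 2 fell, the activation marker Cd69 (-0.84) among them. Of the 20 basophil genes Gata2, a transcription factor that maintains the lineage, rose to 1664 CPM at 1 h, against 1224 CPM at 0 h (0.44 ± 0.09, edgeR adjusted p = 0.00159), and Osm, Ms4a2, Alox15 (-1.15) and Cd69 fell. At an unadjusted p under 0.05, 4 of the 20 were higher and 10 lower, where 1587 of all 12936 genes tested reached that p. DESeq2 called 2 of them higher and 6 lower, against 334 and 325 among all genes. The vesicular monoamine transporter gene Slc18a2 (0.66) rose among 7 mast cell markers and the osteopontin gene Spp1 (0.44) among 24 macrophage markers, and both rose in WT. Neutrophil, eosinophil, NK and T cell, dendritic and B cell, and erythroid markers had 0 calls by edgeR in TTP-KO cells. At an unadjusted p under 0.05 the eosinophil and erythroid lists had 1 higher member each and the NK and T cell list 2 lower, and DESeq2 called 1 eosinophil marker higher. The markers Cd3g, Cd8a, Pax5, Il5ra and Car1 were at 0 reads in all 6 libraries, but other members of these lists had reads. The summed level of the NK and T cell list was 594 to 759 CPM in TTP-KO cells at 1 h, against 742 to 835 CPM at 0 h, and that of the dendritic and B cell list 641 to 739 CPM, against 651 to 721 CPM. The eosinophil list summed to 212 to 277 CPM at 1 h, against 234 to 286 CPM at 0 h. The erythroid and progenitor list summed to 2888 to 3116 CPM at 1 h, against 2993 to 3172 CPM at 0 h, and the neutrophil list to 4699 to 5302 CPM, against 4995 to 5347 CPM. The part of such cells in the results was not tested.

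In either direction 2.60% of 77 ribosomal protein genes and 3.1% of 32 genes of ribosome biogenesis were called. For 36 cell cycle genes the share was 5.56%, and for 14 heat shock genes 14.3%. Among all genes tested 1.23% were called higher and 1.51% lower. Of 77 ribosomal protein genes 2 fell, Rpl4 (-0.52) among them, with a median of -0.10. The 41 respiratory chain genes and 29 interferon response genes had 0 calls by edgeR or by DESeq2. For lists of this size, 0 calls by edgeR lie near the share among all genes tested. At an unadjusted p under 0.05, 1 respiratory chain gene was higher and 1 lower, and 4 interferon response genes were lower. The median log2 change of the interferon list was -0.48 in TTP-KO cells and -0.40 in WT, and that of the respiratory chain list -0.04 and -0.21. The interferon list summed to 535 to 585 CPM in TTP-KO libraries at 1 h, against 677 to 776 CPM at 0 h. In WT libraries it summed to 490 to 530 CPM at 1 h, against 598 to 663 CPM at 0 h. Of 36 cell cycle genes Ccnd2, for cyclin D2, rose (0.77 ± 0.09, edgeR adjusted p = 6.04e-08) and Pcna fell (-0.57). Of 14 heat shock genes Hspa1a rose (3.27 ± 0.89, edgeR adjusted p = 0.0297), with 4.65, 9.55 and 21.1 CPM in TTP-KO libraries at 1 h and 2.55, 0 and 1.06 CPM in those at 0 h, and Dnaja1 fell (-0.77). Hspa1a has a near-identical copy that can take its reads. Of 32 genes of ribosome biogenesis, Mybbp1a rose (1.3). The calls of Rpl4, Pcna, Hspa1a, Mybbp1a and, above, Dnajb9, Cd53 and Il18r1 were lost when 1 of some 1 to 5 libraries was left out (edgeR adjusted p between 0.0512 and 0.359).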

How the data were processed

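RNA of 24 basophil libraries was sequenced from the 3′ end after alkylation with 10 mM iodoacetamide. STAR 2.7.10a, cutadapt 3.5, SAMtools and the build GRCm39 are named, without their role, per the submitters' processing notes. The deposited table holds expected counts of reads per gene for 15737 genes, not normalized per the file headers and values (12.8% not whole). Its columns carry a letter A, B or C where the labels number replicates, so each is a library of its group, and the other 144 columns of per-sample values were not used here. Counts were rounded and fitted with edgeR 4.0.16 in R 4.3.3 (TMM, filterByExpr, quasi-likelihood, 8 group means over 24 libraries); contrasts set 1 h against 0 h for TTP-KO and for WT, and then compared these changes. The code was tested on simulated data. Chi-square per degree of freedom within groups was 29.5 to 77.2, so no library was a copy of another. Reads carry no molecular identifiers in the table, so floors cover counting error only.

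The members, the 30 gene lists and the rules were chosen with earlier results of these data known. Named were 16 set genes, the 15 largest called rises and falls at 10 CPM or more without overlap of groups, the 8 largest called differences each way at 10 CPM or more, and up to 6 called members of a list each way. Edn1, Col18a1 and Prss37 were named after their values were seen. GENCODE M21 (GRCm38) gave 3′ UTRs for 12740 of 12936 tested genes. Alternatives were library-size scaling, DESeq2 1.42.0, no filter, a fit of the compared groups alone, the column letter as a block, and each library left out.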

Additional observations from a re-analysis of the deposited data

Results flagged for a closer look

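For 8 genes the change from 0 h to 1 h differed between TTP-KO and WT basophils in edgeR's test of the difference. For Areg the TTP-KO change minus the WT change was 0.98, for Il4 0.93, for Ccl3 0.68 and for Plaur 1.09, with levels given above.

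The other 4 genes had few reads, and their fitted differences depend on the prior count and are no bound. The fitted difference was 8.77 for Ccl24 (edgeR adjusted p = 0.0325), which had 186 reads in TTP-KO libraries at 1 h and 0 at 0 h. It was -9.11 for Edn1, the endothelin-1 gene (edgeR adjusted p = 0.000726), with 10.5 CPM in TTP-KO cells at 1 h and 5.43 CPM in TTP-KO cells at 0 h, and 7.80 CPM in WT at 1 h and 0 reads in WT at 0 h, at least 132-fold higher in WT at 1 h. It was -9.62 for Col18a1, a collagen gene (edgeR adjusted p = 0.0186), with 2.64 and 3.16 CPM in TTP-KO cells at 1 h and 0 h, and 4.86 CPM in WT at 1 h and 0 reads in WT at 0 h, at least 77.1-fold higher in WT at 1 h. It was -9.30 for Prss37, a serine protease-like gene (edgeR adjusted p = 0.0325), with 1 read in TTP-KO libraries at 1 h and 53 at 0 h, and 74 reads in WT at 1 h and 4 at 0 h. In the fit of only the groups compared, the differences of Ccl24, Col18a1 and Prss37 were not called. The cause was not tested.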

How the results depend on the processing

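DESeq2 called more genes: 334 higher and 325 lower in TTP-KO cells, 325 and 281 in WT, and 44 and 46 for the difference of the changes. For that difference, the fit without a filter gave 9 and 12, the fit of only the groups compared 9 and 1, and leaving out each library 3 to 7 and 2 to 6. Among these, 3 positive calls were left without TTP-KO 0 h library B, and 6 negative calls arose without WT 0 h library A and 5 each without WT 1 h library B or TTP-KO 1 h library A. Leaving out each library gave 106 to 126 rises and 137 to 177 falls in TTP-KO cells. These runs kept 95 to 115 of the 159 reported rises and 122 to 148 of the 195 reported falls. The differences of Il4, Areg, Ccl3 and Edn1 were called in each alternative run, that of Plaur in all except without TTP-KO 0 h library B. Those of Ccl24, Col18a1 and Prss37 were lost in some.

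No named change reversed. Of the 85 named genes called in TTP-KO cells, 54 kept the call in all 6 fits with a TTP-KO library left out. The column letters did not pair the libraries: same-letter correlations of deviations lay between -0.021 and 0.025 in TTP-KO cells and -0.072 and -0.016 in WT. With the letter as a replicate block, 153 genes rose and 196 fell in TTP-KO cells, 150 and 172 in WT, and 5 and 3 differed. Precision is limited by 3 libraries a group and by genes of few reads.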
